A study of Mus musculus with 10 samples.

Results

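The interferon-inducible p200 family, also called the HIN-200 or PYHIN family, was examined in 7 genes, namely Ifi203, Ifi204, Ifi205, Ifi206, Ifi207, Mnda and Mndal. Their rows were found by NCBI gene identifier among the 39488 rows of the deposited count table, and all 7 had a row. One of them, Mnda, was matched by a synonym, since RefSeq lists its identifier (381308) as Ifi211. Macrophages were taken from the peritoneum of C57BL/6 mice aged 8 weeks on day 3 after thioglycollate, an irritant that draws macrophages into the cavity. In the ox-LDL group, priming with LPS (100 ng/ml), an endotoxin of Gram-negative bacteria, preceded 16 h with oxidized LDL (100 µg/ml), and the labels give no treatment for control cells. Each group had 5 RNA-seq libraries, which the series describes as biological replicates, and whether each came from a separate mouse is not stated. The comparison asks which p200 genes differ in macrophages exposed to oxidized lipid. By the labels, only the ox-LDL group received LPS, so the effects of LPS and ox-LDL cannot be told apart.

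Most p200 proteins carry 1 or more HIN domains, which bind DNA, and most carry a pyrin domain, through which proteins of inflammasomes and related complexes associate. Interferons, released when cells sense microbes or misplaced nucleic acids, act through transcription factors, the IRF family among them, and raise many genes of the family. Members are known in macrophages as sensors of cytosolic DNA and as nuclear regulators of transcription and growth. Aim2, a relative that is not among the 7, binds cytosolic DNA and assembles an inflammasome with the adaptor ASC.

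All 7 genes lie on the minus strand of chromosome 1 in the mouse build mm9, within 563.2 kb from position 175398640 to position 175961886. From the first base to the last, the order is Ifi206 (175398640 to 175421172), Ifi207 (175653814 to 175671878), Ifi204 (175677424 to 175697050), Mndal (175787352 to 175872622), Mnda (175826486 to 175843053), Ifi203 (175850538 to 175872803) and Ifi205 (175942129 to 175961886). In this annotation Ifi206 is named Gm4955 and Ifi207 is named AI607873. The annotated span of Mndal covers 16568 bases of Mnda and 22085 bases of Ifi203 on the same strand. The windows around the RefSeq start sites of Mndal, used below, lie in mm9 at 175810040 to 175810339 and 175810269 to 175810568. Both are at lower positions than Mnda and Ifi203. On the minus strand, a transcript from these starts would overlap neither gene, so the overlap belongs to this annotation. With Aim2, Ifi202b, Ifi208, Ifi209 and Ifi213, the genes of the family with a position numbered 12 and spanned 680.9 kb.

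**Figure D1:**
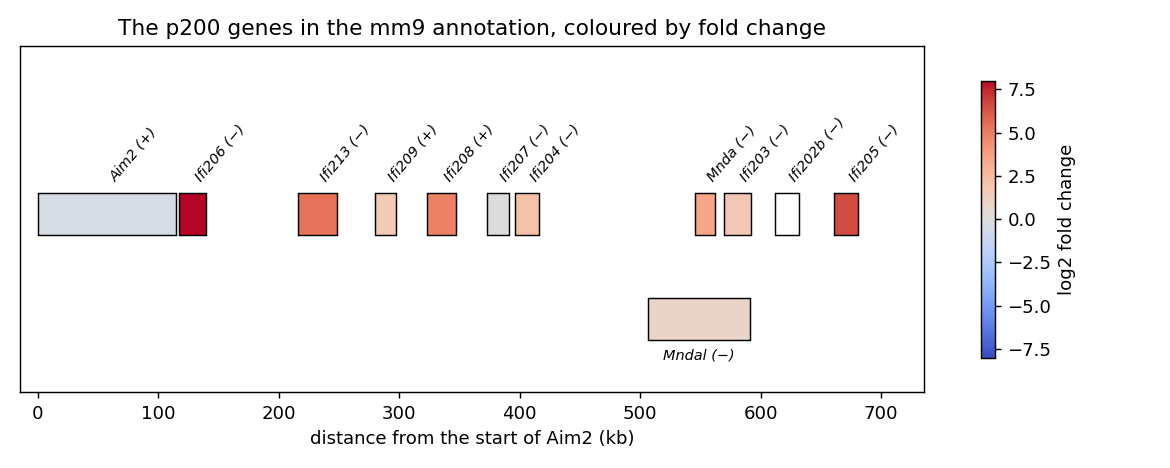
Positions of the 12 p200 genes in the mm9 annotation, as distance from the first base of Aim2 in kb, with the strand in brackets and the fill showing the log2 fold change of ox-LDL over control (Ifi202b, in white, had no row in the count table). Ifi207, near 0, sits beside Ifi204, which rose, and the annotated span of Mndal overlaps those of Mnda and Ifi203.

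Promoter sequence is shown because the genes answer to interferon, and interferon regulatory factors bind an element built of repeated GAAA. The element searched for, on both strands, was GAAA, any 2 bases, GAAA, in windows from 250 bases before to 50 bases after each RefSeq start site (GRCm38.p6). It was found for 6 of the 6 members with a window. No window was listed for Ifi204. Among all 27025 genes with a window, 3.99% held it. The 50 bases around the forward match are given below 5′ to 3′ on the gene's own strand with the element in capitals, at mm9 positions where the whole 300-base window matched exactly once (chr1:175421460-175421509, chr1:175671952-175672001, chr1:175810325-175810374, chr1:175843185-175843234, chr1:175872629-175872678 and chr1:175961991-175962040 in this order, all minus strand).
Ifi206: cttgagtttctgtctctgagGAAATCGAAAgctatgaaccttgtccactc
Ifi207: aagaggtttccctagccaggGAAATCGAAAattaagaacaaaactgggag
Mndal: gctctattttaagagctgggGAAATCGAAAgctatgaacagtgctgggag
Mnda: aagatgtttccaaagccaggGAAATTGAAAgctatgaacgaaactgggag
Ifi203: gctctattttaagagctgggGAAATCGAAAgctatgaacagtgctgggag
Ifi205: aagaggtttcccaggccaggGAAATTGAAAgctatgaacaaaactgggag

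The stretches of Mndal and Ifi203 were identical over 50 bases, and those of Mnda and Ifi205 shared 46 of 50. Ifi207 shared 44 of its 50 bases with Ifi205 and 42 with Mnda. The element began 35 to 41 bases before the start site in Ifi203, Mndal, Mnda, Ifi206 and Ifi207, and 134 bases before it in Ifi205, which held a second match on the opposite strand 23 bases after its start. Ifi203 and Mndal each had a further RefSeq window, with no match for Ifi203 and an opposite-strand match for Mndal. Among the other genes listed with the family, 4 of 7 held the element, whereas Aim2, Ifi209 and Ifi202b did not. Those with it were Ifi208, Ifi213 and Ifi214 on chromosome 1, and BC147527 on chromosome 13. BC147527 was taken from a hand-written list, and its place in the family was not checked. Ifi207, which held the element within a stretch much like that of Ifi205, did not pass the test of the difference between groups given below. A match of letters was counted here, and binding of a factor was not measured.

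The p200 genes are near copies of each other over parts of their length, so reads can fit more than 1 of them. Of all 50-base stretches in the annotated transcripts of Mnda, 78.8% also occurred in another p200 gene, and 48.4% occurred in Ifi205. Ifi205 shared 49.5% of its stretches, nearly all of them with Mnda (49.4%). Sharing was intermediate in Ifi204 (28.3%), Mndal (28.0%) and Ifi206 (16.2%), and low in Ifi207 (4.6%) and Ifi203 (2.8%). Over 100 bases, 61.8% of Mnda, 41.5% of Ifi205 and 15.7% of Ifi204 were still shared, against 0.3% of Ifi207 and 0.0% of Ifi203. The deposited counts of Ifi203, Ifi204, Ifi205, Ifi207, Mnda and Mndal were not whole numbers in all 10 libraries, and those of Ifi206 were not whole in 4. Counts that were not whole did not follow sharing throughout, since Ifi209, which shared no stretch, had them in 7 libraries, whereas Ifi213, which shared 15.3%, and Aim2, which shared none, had them in 0. The sources used here do not say how shared reads were divided or if strand was used, so the division of counts between Ifi205 and Mnda in particular is uncertain.

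**Figure D2:**
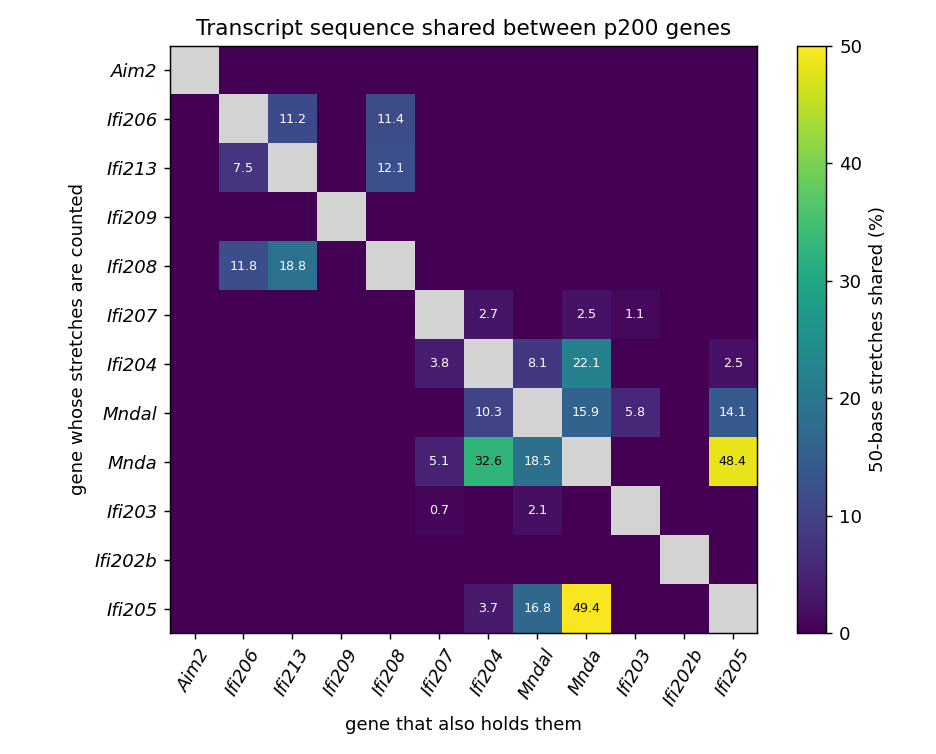
Percent of the 50-base stretches of the gene in each row that also occur in the gene in each column, over the mm9 transcripts of 12 p200 genes, with 0.0% left unprinted. Mnda and Ifi205 share most, with 48.4% of Mnda and 49.4% of Ifi205, while Aim2, Ifi209 and Ifi202b share none.

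The total count ranged from 20094647 to 20687289 in control and from 19257131 to 20358017 in ox-LDL libraries. ox-LDL replicate 2 stood apart, with a TMM scaling factor of 0.5926 against 0.8369 to 1.193 in the other 9, and long genes were under-represented in it, as in control replicates 1 and 4 (Spearman correlations of deviation with gene length of -0.644, -0.569 and -0.459, across genes). The members called were 6 without ox-LDL replicate 2 and 6 with each library's length trend removed, as with all libraries. Over all genes, more were called in these settings, in either direction. They were 3257 of 12973 tested and 2901 of 12643 tested, against 1866 of 12654 in the main fit. Macrophage markers dominated every library, with a sum of counts scaled to a common library size (CPM) of 25490 to 44962 in control and 14640 to 29154 in ox-LDL cells. Of the other marker lists, that of mesothelial and stromal cells was higher in ox-LDL libraries without overlap (16.8 to 54.6 and 66.3 to 165 CPM, 3 of 8 higher, namely Col1a1, Col1a2 and Dcn). Dcn held the largest part of this sum (10.7 to 35.8 and 53.1 to 98 CPM). Upk3b lay lower without overlap (0.296 to 0.86 and 0 to 0.266 CPM), and Msln, Krt19, Wt1 and Col3a1 overlapped between groups. The dendritic cell sum was also higher without overlap (90.3 to 132 and 377 to 1186 CPM, 3 of 8 higher, namely Clec9a, Ccr7 and Bst2). It was carried by Bst2 (70.6 to 120 and 361 to 1177 CPM), which is itself interferon-inducible. Clec9a and Ccr7 reached at most 2.13 and 11.5 CPM. Tcf4 was not higher (11.3 to 18.8 and 4.16 to 14 CPM), and Siglech, Flt3 and Xcr1 stayed at or below 0.417 CPM. B cell markers (45 to 57.5 and 12.4 to 31.8 CPM) were lower, carried by Cd22. Sums overlapped for neutrophils (18.8 to 44.5 and 24.2 to 92.4 CPM), resident peritoneal macrophages (5.76 to 11.9 and 3.65 to 12 CPM), T and NK cells (1.36 to 2.15 and 0.991 to 1.65 CPM) and eosinophils and mast cells (3.01 to 11.5 and 0.783 to 3.35 CPM), with 1, 1, 0 and 0 markers higher and 0, 0, 0 and 1 lower. No marker in the table was at 0 in all 10 libraries, and Cd3e, Cd8a and Prg2 were at 0 in all control libraries. Their part in the p200 results was not tested, and in bulk RNA fewer cells of a type and less RNA per cell cannot be told apart.

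Of the 7 p200 genes, 6 were higher in ox-LDL-treated macrophages (Ifi203, Ifi204, Ifi205, Ifi206, Mnda and Mndal, edgeR quasi-likelihood test, adjusted p below 0.01 over 12654 genes), none was lower, and Ifi207 did not pass. Of all genes tested, 9.4% were higher and 5.35% were lower by the same rule. A log2 fold change above 2 was reached by 4 members (Ifi204, Ifi205, Ifi206 and Mnda), against 4.78% of all genes. Values of the 6 genes did not overlap between groups, as for 11.6% of all genes in this direction. For each of the 6, an exact two-sided permutation test over all arrangements of the libraries gave p = 0.00794, the smallest it can give. The median log2 fold change of the 7 genes was 2.17, beside 0.10 for all genes tested. All 7 passed the filter on low counts, Ifi206 and Ifi205 through their level in the ox-LDL group.

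**Figure D3:**
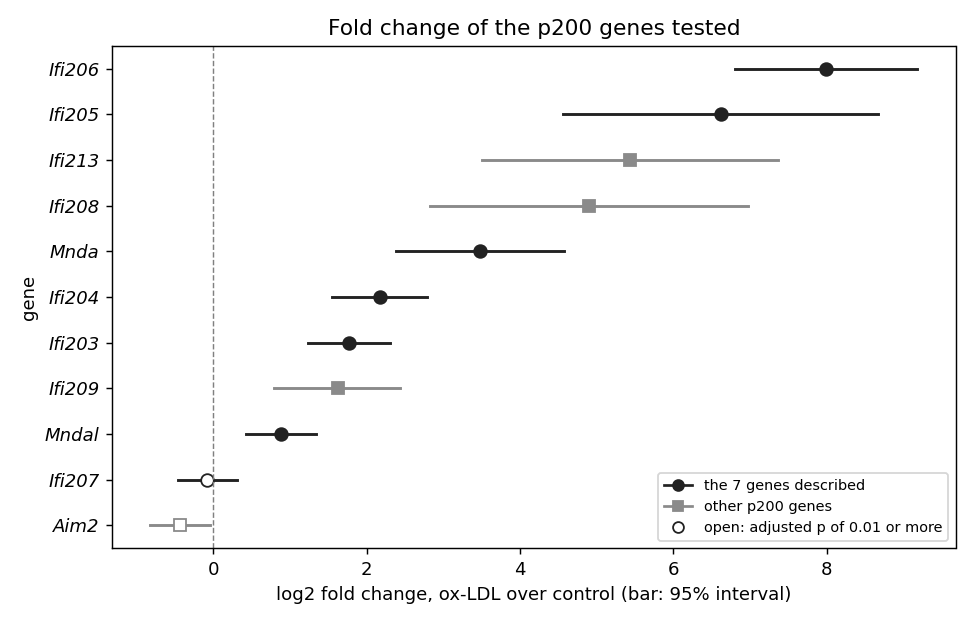
Log2 fold change of ox-LDL over control for each p200 gene tested (points) with its 95% interval (bars), circles for the 7 genes described and squares for 4 relatives, open symbols for an adjusted p of 0.01 or more. Ifi206 (7.99) and Ifi205 (6.62) lie farthest to the right, while the interval of Ifi207 spans 0.

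Ifi204 (15951), a DNA-binding protein often set beside human IFI16 as a sensor that signals through STING, was the most abundant of the 7 genes per length in control cells. Its TMM-normalized CPM was 108, 77.5, 74.4, 92.6 and 84.8 in control replicates 1 to 5 and 350, 446, 261, 259 and 653 in ox-LDL replicates 1 to 5. Every ox-LDL library lay above every control library, and replicates 5 and 2 were the highest. The mean was 87.5 ± 13.6 in control and 394 ± 164 in ox-LDL cells (SD, n = 5 each). Ifi204 was 4.5-fold higher (log2 fold change 2.17, SE 0.29, 95% interval 1.55 to 2.79, edgeR adjusted p = 0.000239).

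Ifi205 (226695), a nuclear member known to regulate expression of the inflammasome adaptor ASC in macrophages, was close to the lower end of detection in most control libraries. Its normalized CPM was 1.83, 0.257, 1.54, 3.4 and 7.78 in control replicates 1 to 5 and 101, 238, 155, 129 and 834 in ox-LDL replicates 1 to 5. The groups did not overlap, and replicate 5 was the highest in each of them. The mean was 2.96 ± 2.92 in control and 291 ± 308 in ox-LDL cells (SD, n = 5 each), a spread as large as the mean itself. The difference was 98.1-fold (log2 fold change 6.62, SE 0.94, 95% interval 4.56 to 8.67, edgeR adjusted p = 0.0004). The log2 fold change was 5.72 without ox-LDL replicate 5 and 7.38 without control replicate 5. In control replicate 5 the estimated count was 179.30, against 6.46 to 66.24 in the other controls, and it equalled 1.28% of the 13965.47 counts of ox-LDL replicate 5.

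Mnda (381308, Ifi211 in RefSeq), named after the human myeloid cell nuclear differentiation antigen, was the most abundant of the 7 genes per length after ox-LDL. Its normalized CPM was 59.4, 37.3, 26.7, 47.9 and 48.0 in control replicates 1 to 5 and 290, 788, 201, 203 and 962 in ox-LDL replicates 1 to 5. The groups did not overlap, and ox-LDL replicates 5 and 2 stood above the other 3 ox-LDL libraries. The mean was 43.9 ± 12.4 in control and 489 ± 360 in ox-LDL cells (SD, n = 5 each). Mnda was 11.1-fold higher (log2 fold change 3.48, SE 0.50, 95% interval 2.38 to 4.57, edgeR adjusted p = 0.000435). Since Mnda and Ifi205 share so much sequence, their CPM were also added, giving 61.2, 37.6, 28.2, 51.3 and 55.7 in control and 391, 1027, 356, 332 and 1796 in ox-LDL replicates 1 to 5. The summed values, which any division of reads between Mnda and Ifi205 leaves as they are, did not overlap between groups, with means of 46.8 ± 13.6 and 780 ± 638 (SD, n = 5 each) and a log2 ratio of the means of 4.06. Division of reads with other members can still alter the sum. Of the 50-base stretches of Mnda, 32.62% occur in Ifi204 and 18.53% in Mndal, and 16.75% of those of Ifi205 occur in Mndal.

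Ifi206 (102639543), a member close in sequence to Ifi208 and Ifi213, was almost undetected in control cells and had the largest fold change of the 7 genes. Its estimated count was 4.00, 2.00, 6.00, 2.00 and 13.00 in control replicates 1 to 5 and 2720.85, 516.93, 713.00, 1073.96 and 1291.66 in ox-LDL replicates 1 to 5. The lowest ox-LDL count was far above the highest control count, which was in replicate 5. The normalized CPM was 0.246 ± 0.193 in control and 65.2 ± 33.6 in ox-LDL cells (SD, n = 5 each), from 0.0856 to 0.565 and from 34.8 to 118. The difference was 255-fold (log2 fold change 7.99, SE 0.54, 95% interval 6.81 to 9.18, edgeR adjusted p = 4.87e-06), and the control side of it rests on very few counts. The log2 fold change was 8.56 with control replicate 5 left out. That library's 13.00 counts equalled 1.01% of the count of ox-LDL replicate 5, and whether RNA or reads passed between libraries was not tested.

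Ifi203 (15950), one of the genes from which the family was first described, was 3.42-fold higher in ox-LDL cells (log2 fold change 1.77, SE 0.24, 95% interval 1.24 to 2.30, edgeR adjusted p = 0.000306). Its normalized CPM was 35.2, 27.9, 30.3, 28.4 and 24.6 in control replicates 1 to 5 and 96.8, 82.6, 74.2, 79.3 and 167 in ox-LDL replicates 1 to 5. The groups did not overlap, and ox-LDL replicate 5 lay well above the other 4, which differed little. The mean was 29.3 ± 3.88 in control and 100 ± 38.5 in ox-LDL cells (SD, n = 5 each). Few of its 50-base stretches occur in another p200 gene, and the span of Mndal annotated in mm9 overlaps its own.

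Mndal (100040462), named for its likeness to Mnda, showed the smallest difference among the genes that passed. Its normalized CPM was 55.5, 53.8, 49.7, 47.4 and 34.2 in control replicates 1 to 5 and 100, 87.5, 69.3, 66.9 and 119 in ox-LDL replicates 1 to 5. On this scale the groups did not overlap, and control replicate 5 was the lowest library. The mean was 48.1 ± 8.44 in control and 88.6 ± 21.9 in ox-LDL cells (SD, n = 5 each). Mndal was 1.84-fold higher (log2 fold change 0.88, SE 0.21, 95% interval 0.42 to 1.34, edgeR adjusted p = 0.00914). The call was lost in 16 of 23 alternatives, whose adjusted p ranged from 0.00185 to 0.0866. Leaving out any library other than ox-LDL replicates 2 and 4 was enough to lose it, with log2 fold changes from 0.75 to 0.96. On the deposited FPKM scale (a level per length), ox-LDL replicate 2, at 25.01, lay within the control range of 19.80 to 29.53.

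Ifi207 (226691), a member with a long linker between its pyrin and HIN domains, did not pass the test. Its normalized CPM was 81.1, 95.7, 85.7, 120 and 90.2 in control replicates 1 to 5 and 88.5, 71.6, 90.4, 90.1 and 108 in ox-LDL replicates 1 to 5. The groups overlapped, with the lowest value in ox-LDL replicate 2 and the highest in control replicate 4. The mean was 94.6 ± 15.3 in control and 89.7 ± 13 in ox-LDL cells (SD, n = 5 each). The log2 fold change was -0.08 (SE 0.18, edgeR adjusted p = 0.797), and its 95% interval of -0.46 to 0.31 leaves out changes as large as that of Mndal. The exact two-sided permutation test gave p = 0.619.

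**Figure D4:**
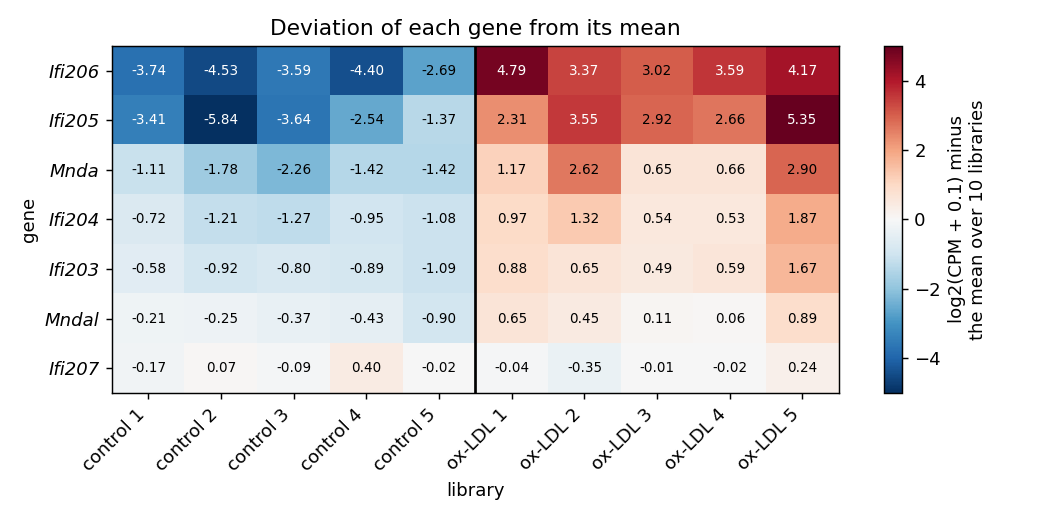
Deviation of each gene (rows) from its own mean over the 10 libraries (columns, 5 control then 5 ox-LDL), as log2(CPM + 0.1) after TMM scaling. Ifi206 and Ifi205 change most between groups, Ifi207 stays between -0.35 and 0.40, and ox-LDL replicate 5 has the highest value of Ifi205 (5.35), Mnda (2.90), Ifi204 (1.87) and Ifi203 (1.67).

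The order of the members by level differed between the groups. Levels of different genes were compared on the deposited scale, which is per length and is treated as FPKM, as a description with no test. In control cells, Ifi204 was the highest, with a median of 44.58 FPKM (42.10 to 46.92). It was followed by Ifi207 (median 31.05, 21.35 to 35.98), Mnda (28.62, 18.72 to 32.90) and Mndal (24.84, 19.80 to 29.53), whose ranges overlapped. Ifi203 (7.86, 7.04 to 9.11), Ifi205 (1.16, 0.21 to 5.79) and Ifi206 (0.06, 0.03 to 0.20) came next, each without overlap with its neighbours. Control cells thus held Ifi204, Ifi207, Mnda and Mndal at well above the level of the other members, with Ifi205 and Ifi206 near the bottom of the scale.

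In ox-LDL cells, Mnda was the highest, with a median of 207.43 FPKM (127.89 to 481.22), followed by Ifi204 (133.77, 122.34 to 253.03) and Ifi205 (92.85, 78.92 to 455.40). The ranges of Mnda, Ifi204 and Ifi205 overlapped from one to the next. Mndal (33.77, 25.01 to 56.45), Ifi207 (27.70, 11.87 to 30.72), Ifi203 (21.13, 12.62 to 31.82) and Ifi206 (17.22, 7.88 to 42.55) formed a lower group, also with overlapping ranges. The step from Ifi205 to Mndal was the only one without overlap. Without ox-LDL replicate 2, the step from Mndal to Ifi207 had no overlap either. With CPM per kilobase after TMM scaling, Mnda and Ifi207 changed places in control cells and the order in ox-LDL cells was as given.

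Summed over the 7 genes, the level was 127.74 to 141.96 FPKM in control and 457.32 to 1313.12 FPKM in ox-LDL libraries. The median share of that sum held by Ifi205 was 0.91% in control and 20.14% in ox-LDL cells, and that of Mnda was 20.16% and 32.59%. The share of Ifi204 was 31.32% to 34.82% in control (median 31.54%) and 19.27% to 30.27% in ox-LDL cells (median 28.36%), without overlap. The share of Ifi207 was 22.61% in control and 4.83% in ox-LDL cells, and that of Mndal was 18.43% and 7.24%. Ifi203 held 5.72% and 4.19%, and Ifi206 held 0.04% and 2.45%. Shares of 1 sum depend on each other, and the share of Ifi207 was lower while its own FPKM ranges overlapped.

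**Figure D5:**
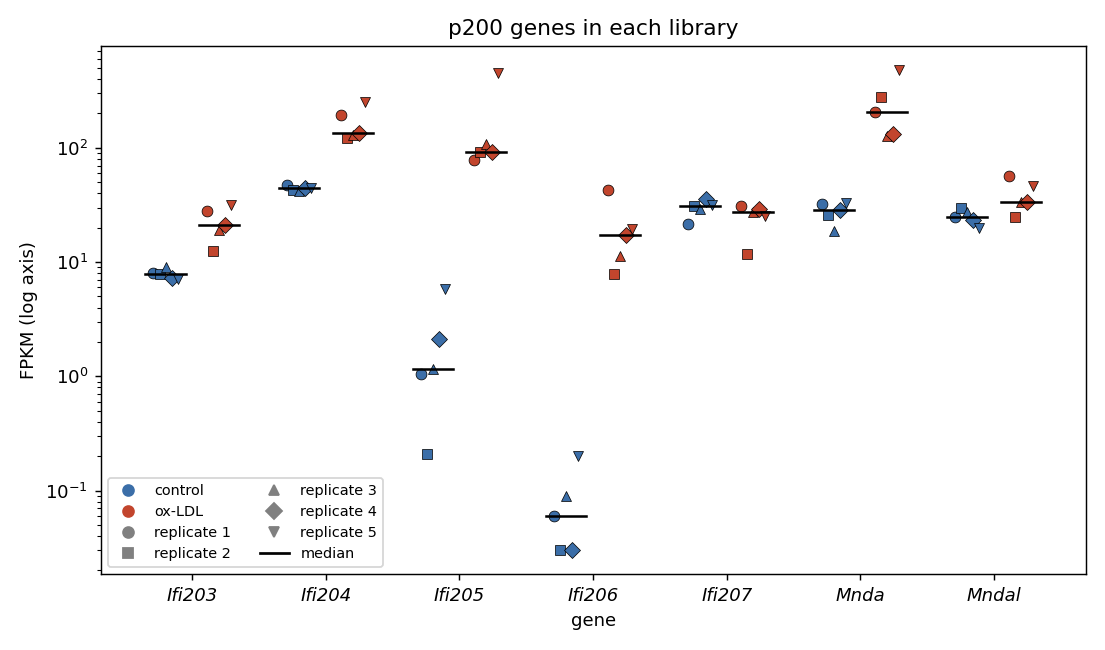
FPKM of each p200 gene in every library on a log axis, blue for control and red for ox-LDL, with the symbol giving the replicate number and the bar the median. Ifi205 and Ifi206 are the lowest genes in control cells, with medians of 1.16 and 0.06, and Ifi207 overlaps between the groups.

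The other p200 genes were taken from a hand-written list of 9, of which 6 were further rows of the table, 4 passed the filter, 3 were higher and none was lower. Ifi208 and Ifi213, annotated as the pyrin-only genes Pydc3 and Pydc4, had few control reads and passed the filter through the ox-LDL group, with counts of 0.00 to 8.00 and 1.00 to 24.00, the highest of each in replicate 5. The normalized CPM of Ifi213 was 0.333 ± 0.415 in control and 14.7 ± 13.3 in ox-LDL cells (SD, n = 5 each), with a log2 fold change of 5.43 (SE 0.89, edgeR adjusted p = 0.000935), which was 6.59 without control replicate 5 and 4.79 without ox-LDL replicate 5. The call of Ifi213 was lost with no filter beyond 1 count (5.37, edgeR adjusted p = 0.0107). The normalized CPM of Ifi208 was 0.0977 ± 0.141 and 3.18 ± 3.27 (SD, n = 5 each), with a log2 fold change of 4.90 (SE 0.95, edgeR adjusted p = 0.00272), which was 4.19 without ox-LDL replicate 5. Without control replicate 5, the controls held 0.00 to 1.00 counts of Ifi208 and no fold is given.

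Ifi209, annotated as Pyhin1, had a normalized CPM of 24.2 ± 2.41 in control and 74.3 ± 48.1 in ox-LDL cells (SD, n = 5 each). It was higher by 1.62 on the log2 scale (SE 0.38, edgeR adjusted p = 0.0079), and the call was lost in 13 of 23 alternatives, among them leaving out any library other than ox-LDL replicates 2, 3 and 4. Aim2 did not pass, with a normalized CPM of 51.9, 57.3, 52.7, 54.8 and 44.5 in control and 50.9, 43.2, 36.6, 31.7 and 31.1 in ox-LDL replicates 1 to 5. Its log2 fold change was -0.43 (SE 0.18, 95% interval -0.82 to -0.05, edgeR adjusted p = 0.0902), and its groups overlapped. Aim2 and Ifi207 were thus the tested family genes without a call. Ifi214 had 0.00 to 1.13 counts in control and 0.00 to 16.75 in ox-LDL libraries. BC147527, which lies on chromosome 13 and whose place in the family was not checked, had 0 to 7 and 1.99 to 11.24. Neither passed the filter, so neither was tested. Ifi202b and Pydc5 were not analysed here, and Ifi211 is the gene described as Mnda.

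Genes around the family in the interferon pathway were taken from hand-written lists. Among interferon ligands, 2 of 8 had a row, and only Ifng was tested. Ifng, a cytokine of lymphocytes that macrophages can also express, had 5 counts in control replicate 5, 0 in the other 4 control libraries and up to 405 in an ox-LDL library (log2 fold change 7.41, SE 1.20, edgeR adjusted p = 0.00086). The size of its fold change rests on that 1 control library, without which all controls are at 0 and no fold is given. Ifnb1, the main type I interferon of macrophages, had 0 counts in all control libraries and at most 6 in an ox-LDL library. Ifnb1 was thus hardly detected at this depth.

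Of 16 interferon receptor and signalling genes, 9 were higher and 1 was lower, with a median log2 fold change of 1.61 beside 0.10 for all genes. The receptor gene Ifngr1 was lower (log2 fold change -1.66, SE 0.21, edgeR adjusted p = 0.000184), whereas Ifnar2 was higher (1.58, SE 0.33, edgeR adjusted p = 0.00438). The other receptor genes listed, Ifnar1 (0.21, SE 0.27) and Ifngr2 (0.16, SE 0.21), did not pass, with edgeR adjusted p of 0.617 and 0.604. The transcription factors Stat2 (2.10, SE 0.30), Irf1 (4.70, SE 0.41), Irf7 (4.54, SE 0.70) and Irf8 (3.24, SE 0.39) were higher, with edgeR adjusted p from 2.14e-05 to 0.000651. Irf9, a DNA-binding factor of the type I interferon response, missed the threshold (1.00, SE 0.25, edgeR adjusted p = 0.0117). The feedback inhibitors Socs1 (5.12, SE 0.80) and Usp18 (2.17, SE 0.48), which damp interferon receptor signalling, were higher too, with edgeR adjusted p of 0.000712 and 0.00608.

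Of 25 interferon-stimulated genes outside the family, 23 were higher and none was lower, with a median log2 fold change of 3.27. They included Isg15, a ubiquitin-like modifier (5.50, SE 0.61, edgeR adjusted p = 8.07e-05), and Gbp2, a guanylate-binding protein (6.52, SE 0.46, edgeR adjusted p = 5.62e-06). Eif2ak2 and Ddx58, both sensors of RNA, did not pass (0.69, SE 0.21 and 1.11, SE 0.33, edgeR adjusted p = 0.0303 and 0.0278). The log2 fold change of Ifi206 (7.99) lay just above the highest of these genes, Gbp5 (7.95, SE 1.03, edgeR adjusted p = 0.000223). That of Ifi205 lay among the higher values, and those of Ifi203 and Mndal lay among the lower ones, with no test of the difference made.

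Of 15 genes of cytosolic DNA sensing, 4 were higher and none was lower, with a median log2 fold change of 0.54. Without ox-LDL replicate 2, 4 were higher and 1, the helicase gene Dhx9, was lower, with a median of 0.20. Those higher were Zbp1, a sensor of Z-form nucleic acid (5.41, SE 0.51, edgeR adjusted p = 2.95e-05), the nuclease Trex1 (2.46, SE 0.43, edgeR adjusted p = 0.00147), the nucleotide hydrolase Samhd1 (1.57, SE 0.30, edgeR adjusted p = 0.00232) and the kinase Tbk1 (1.01, SE 0.17, edgeR adjusted p = 0.000977). Sting1, the adaptor through which Ifi204 is reported to signal, had a log2 fold change of -0.10 (SE 0.18, edgeR adjusted p = 0.725). Cgas, the enzyme upstream of it, had 1.14 (SE 0.37, edgeR adjusted p = 0.0403). Genes that act with Aim2 or in the same kind of complex gave 2 of 8 higher, Gsdmd (1.22, SE 0.25, edgeR adjusted p = 0.0036) and Nlrp3 (2.88, SE 0.47, edgeR adjusted p = 0.000899), and none lower, with a median of 0.85. Pycard, which encodes ASC, had -0.19 (SE 0.54, edgeR adjusted p = 0.832) and Casp1 had 1.03 (SE 0.28, edgeR adjusted p = 0.017). Without ox-LDL replicate 2, Pycard passed as lower, and the list gave 2 higher and 1 lower with a median of 0.73.

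The genes whose profile over the 10 libraries was most like the mean profile of the 7 members were Irgm2, Mlkl, H2-Q4, C1ra and Tma16. Likeness was the root mean square difference between profiles of log2 CPM centred on each gene's mean, which was 0.256 for Irgm2, 0.339 for Mlkl, 0.351 for H2-Q4, 0.371 for C1ra and 0.373 for Tma16, among 7497 genes compared. Irgm2 is an interferon-inducible GTPase, Mlkl is the effector of necroptosis, H2-Q4 is an MHC class I gene with close copies, and C1ra encodes a complement protease. By the same measure the members themselves differed from their mean by 0.472 (Mnda) to 2.277 (Ifi206), so the mean profile describes Mnda, Ifi204 (0.563) and Ifi203 (0.772) better than Mndal (1.207), Ifi207 (1.662) or Ifi205 (2.032). These values describe 10 libraries in 2 groups, which share the difference between groups.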

How the data were processed

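Per the submitters' processing notes, the tools were HISAT2 2.0.5 on mm9, SAMtools 1.4 and StringTie 1.3.3.13. The deposited gene table holds estimated counts from the authors, not normalized, and 13.57% of them were not whole. How they were counted, and whether by strand, is not given in the sources used here. The authors' file for each library adds a deposited value scaled by length and depth, which is treated as FPKM although no header names its unit, because count divided by this value and by the library total was nearly constant for a gene (median coefficient of variation 3.336%). Labels call the controls untreated, and this was followed, although a legend in the study could mean that both groups had LPS.

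Counts were rounded, 9788 circular RNA rows were left out, and 12654 genes that passed filterByExpr were tested with edgeR 4.0.16 in R 4.3.3 (TMM, robust quasi-likelihood test, Benjamini-Hochberg adjustment over all of them). A gene was called higher or lower at an adjusted p below 0.01. The SE was the absolute log2 fold change divided by the square root of F. Normalized CPM use TMM, whereas marker sums use library size alone. Levels between genes were compared as FPKM. Single values were also tested by exact permutation on log2(CPM + 0.1). Genes were named if they were members, other p200 genes, genes that define a pathway list (interferon ligands, receptors and signalling, stimulated genes, cytosolic DNA sensing and inflammasome partners) or the 5 genes most like the members among those with a mean of at least 10 CPM. Values of some single genes on these lists are left out. The members, lists and tests were chosen with earlier results of these data known. Symbols and promoters came from RefSeq (GRCm38.p6), positions and transcripts from GENCODE for mm9.

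There were 5 libraries per group, with 19257131 to 20687289 counts in each. The edgeR p-values set the difference between groups against the spread between these libraries, which is estimated partly across genes. Alternatives were DESeq2 1.42.0, limma-voom (limma 3.58.1), other normalizations, filters, row sets, roundings and thresholds, limma on log2(FPKM + 1) and log2(FPKM + 0.1), removal of the length trend, the replicate number as a block, and each library left out. The fit was tested on simulated data, in which it recovered 154 of 200 changed genes among 12276 with 0 false calls. The simulated means came from control libraries and library sizes. As many genes were raised as lowered, all of them above a minimum control level. No length trend and no shift in TMM factors were put in, so the simulation does not cover these features of the data or genes as low in control as Ifi206.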

Additional observations from a re-analysis of the deposited data

Results flagged for a closer look

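In 4 of 22 groups of 5 libraries examined, 1 library lay apart from the other 4 by Dixon's criterion. Chance gives about 1 in 20, or 1.1, for independent groups of normally spread values. The groups here were the same libraries seen through related genes, on CPM without logs, so 4 cannot be weighed against 1.1. Each library apart was ox-LDL replicate 5 or control replicate 5. Among the members, the normalized CPM of Ifi203 was 167 in ox-LDL replicate 5 and 96.8 in the nearest library, a gap of 0.758 of the group's range. That of Ifi205 was 834 in the same library and 238 in the nearest, a gap of 0.813 of the range. Among the relatives, control replicate 5 held 0.348 CPM of Ifi208, against 0.0553 in the nearest control (0.841 of the range), and 1.04 CPM of Ifi213, against 0.332 (0.711 of the range). Both libraries are numbered 5, and the counts behind the control values were 8.00 for Ifi208 and 24.00 for Ifi213. The values are given without a cause, and the source of either library's deviation was not tested.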

How the results depend on the processing

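The calls of Ifi203, Ifi204 and Mnda held in all 23 alternatives that gave a value, and those of Ifi205 and Ifi206 in all 22. The number of members higher ranged from 3 to 6 over 25 alternatives and was 0 for lower in each. It was 3 of 5 tested with at least 10 counts in every library, a filter that removes Ifi205 and Ifi206 by construction, and 5 or 6 with each library left out. Among the other p200 genes, 3 were higher, against 1 with at least 10 counts in every library, 1 by limma on log2(FPKM + 1), 1 by limma on log2(FPKM + 0.1), and 2 to 3 with each library left out. The log2 fold change of Ifi207 was 0.02 without control replicate 4, and ranged from -0.16 to 0.02 with each library left out. For Mndal, the call was lost with upper-quartile normalization (0.72, adjusted p = 0.0197), library size alone (0.70, 0.0695), no filter (0.82, 0.024), at least 10 counts in every library (0.87, 0.01), all rows (0.87, 0.0108), log2(FPKM + 1) (0.58, 0.0835) and log2(FPKM + 0.1) (0.60, 0.0866), and its value was 0.75 to 0.97 with each library left out. The cause was not tested. The fold change of Ifi206 was 4.04 and that of Ifi213 2.17 on log2(FPKM + 1), where the pseudocount compresses low values. Over all genes, 1866 of 12654 tested were called, against 3253 of 29267 by DESeq2 and 3257 of 12973 without ox-LDL replicate 2. They were 2901 of 12643 with the length trend removed and 1437 of 10625 with at least 10 counts in every library. The median log2 fold change of all genes moved from 0.10 to between -0.18 and 0.31. Deviations of same-numbered libraries correlated at -0.242 to 0.404, and whether replicate numbers pair the libraries is not settled by these values. Control replicate 5 correlated at 0.392 with ox-LDL replicate 5 and at most 0.0863 with any other ox-LDL library. With the number as a replicate block, 5 members and 1434 genes were called, and Mndal was at 0.86 (adjusted p = 0.0357). Depth limits Ifi206, Ifi208 and Ifi213, whose control counts were between 0.00 and 24.00.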

Other observations

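Log2 ratios of normalized CPM between members follow from the fold changes of the report and are given for a few pairs. The log2 ratio of Ifi203 to Ifi204 was -1.78 to -1.29 in control and -2.43 to -1.71 in ox-LDL cells, with overlapping ranges. Ifi203 and Mndal, whose promoter stretches were identical over 50 bases, had a log2 ratio of -0.95 to -0.47 in control and -0.08 to 0.49 in ox-LDL cells. Mnda and Mndal, whose spans annotated in mm9 overlap, had a log2 ratio of -0.89 to 0.49 in control, on both sides of 0, and of 1.53 to 3.17 in ox-LDL cells. Ifi205 and Mnda, with the most shared sequence, had a log2 ratio of -6.71 to -2.61 in control and -1.72 to -0.21 in ox-LDL cells, which the division of shared reads could alter. These are descriptions with no test.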
